A study of Canis lupus familiaris with 69 samples.

Results

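Cystic endometrial hyperplasia (CEH) is a thickening of the uterine lining with dilated glands that develops in bitches over repeated cycles. The 16 dogs with CEH, of 69 dogs in the series, did not group as 1 set in the study's clustering of expression values. A set of 7 dogs (cases 13, 29, 94, 133, 171, 180 and 208) lay on the main branch of the dendrogram that held the pyometra dogs, and the other 9 (cases 81, 83, 127, 131, 155, 162, 175, 196 and 226) lay on the branch that held the normal diestrus dogs. They are called the pyometra branch and the diestrus branch of CEH here. Because the expression values themselves placed the dogs, differences between the branches are given as a description with no p-value. Tests are given only for features that the clustering did not use, which are the stage of the cycle, previous treatment and case number.

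All samples were pieces of endometrium taken at ovariohysterectomy from female dogs admitted to a veterinary hospital, each measured on 1 array, and each dog is 1 sample. In mucometra sterile fluid fills the uterus, and in pyometra the uterus fills with pus. The comparison groups were 21 healthy dogs in early diestrus, all on the diestrus branch, 15 dogs with mucometra and 17 with pyometra. Of these, 1 healthy dog, 2 with mucometra and 10 with pyometra had earlier been treated with progesterone-like compounds. In the mucometra group 6 dogs were in anestrus, and in the pyometra group 2. Luminal exudate was left out of the tissue pieces by the study. Of the CEH dogs, 10 were in the diestrus stage and 6 in anestrus, and 4 had earlier received progesterone-like compounds to suppress estrus while 12 had not. In the pyometra branch, dogs 13, 94, 180 and 208 were in anestrus and dogs 29, 133 and 171 in the diestrus stage, with dog 29 treated. In the diestrus branch, dogs 162 and 226 were in anestrus and the other 7 in the diestrus stage, with dogs 81, 162 and 196 treated. Ages were not used here. In the paper the healthy dogs had a lower median age than each disease group. Disease, age and part of diestrus therefore cannot be told apart in comparisons with the healthy dogs. CEH was diagnosed from clinical data, imaging and histology in dogs of mixed and several pure breeds. The histology came from the other uterine horn than the RNA, so lesion and RNA were read in different pieces of similar appearance. The paper also reports that the frozen tissue was dissected by scalpel, guided by endometrium seen on stained sections.

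After ovulation the bitch spends weeks under high progesterone in diestrus, whether or not she is pregnant, and then passes into anestrus, when ovarian steroids are low and the endometrium regresses and is repaired. Progesterone drives secretion by the endometrial glands and damps uterine contraction and local defence. The nuclear receptors for estrogen (ESR1 and ESR2) and progesterone (PGR) set how the glands and stroma read these hormones. Stromal cells that decidualize, as described best in humans and mice, make IGFBP1, while complement proteins, chemokines and prostaglandins are part of the innate response of the lining.

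Values are log2 levels from RMA, so a difference of 1 is a 2-fold difference. They cover 15947 genes with 1 probe set each, and levels are not compared between genes. The array medians of the CEH dogs lay between 6.24 and 6.31, and no CEH array was a repeat of another, since the most alike pair, dogs 83 and 131, still differed by a root mean square of 0.329 over genes. The closest arrays of the whole series were mucometra dog 216 and pyometra dog 100 (0.237), and the mucometra result below is also given without dog 216. The epithelial genes EPCAM and KRT8 averaged 9.12 and 6.09 in the pyometra branch and 9.40 and 6.54 in the diestrus branch. Of the stromal genes, VIM averaged 11.99 and 12.09 in these branches, DCN 11.64 and 11.09, and PDGFRA 9.64 and 8.94. The smooth muscle genes ACTG2 and MYH11 averaged 11.34 and 10.26 in the pyometra branch and 12.62 and 11.07 in the diestrus branch. The pieces were thus not shown to be free of muscle RNA. The steroid-making enzyme CYP11A1, a marker of ovary, was at 3.54 to 4.46, and the squamous keratin KRT5 was at 4.53 to 5.59, in the 16 dogs. UPK3B, a marker of mesothelium, ran from 4.87 to 8.56 in the pyometra branch and from 5.46 to 8.93 in the diestrus branch. WT1, listed with it, averaged 9.69 and 8.64 in these branches. The part of mesothelial RNA in the results was not tested.

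Where each dog stood between the healthy and the infected uterus was measured on the line from the mean of normal diestrus (0) to the mean of pyometra (1) over all genes. The dogs of the pyometra branch lay at 0.546 ± 0.103 (SD, n = 7) and those of the diestrus branch at 0.152 ± 0.200 (SD, n = 9). Neither set reached the mean of pyometra, and the pyometra branch overlapped the mucometra dogs, which lay at 0.603 ± 0.167 (SD, n = 15). In the pyometra branch the positions were 0.473, 0.592, 0.562 and 0.487 in the anestrus dogs 13, 94, 180 and 208, and 0.385, 0.650 and 0.674 in the diestrus-stage dogs 29, 133 and 171. In the diestrus branch the anestrus dogs 162 and 226 stood at 0.435 and 0.337, while the 7 diestrus-stage dogs ranged from -0.183 in dog 81 to 0.309 in dog 196. The branches therefore overlapped on this scale, with dog 162 above dog 29. On a line drawn to the mean of mucometra instead, the pyometra branch reached 0.944 ± 0.086 and the diestrus branch 0.316 ± 0.322. With the untreated pyometra dogs alone as the end point, the branches were at 0.662 ± 0.084 and 0.206 ± 0.230.

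**Figure D1:**
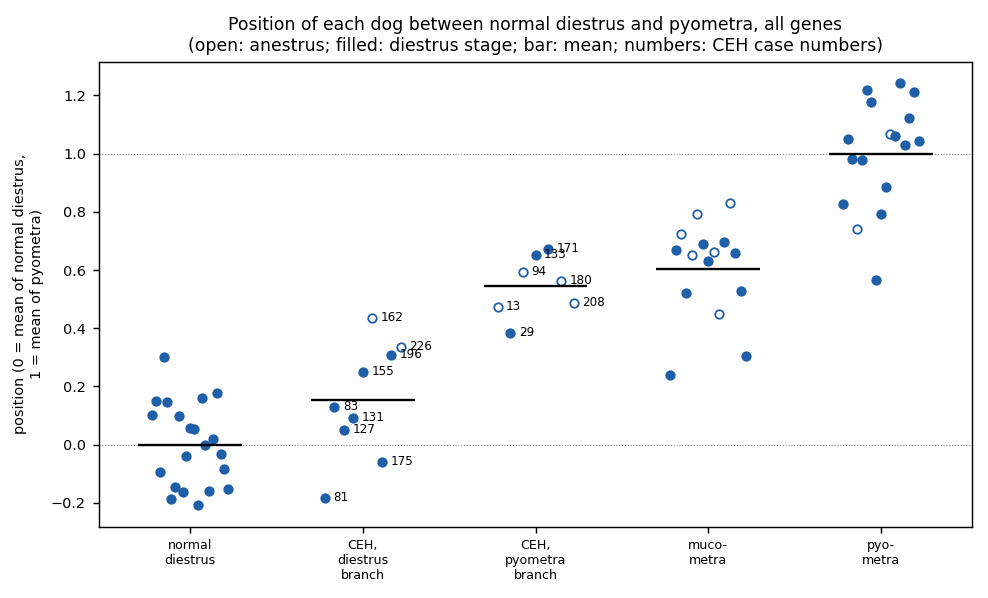
Position of each of the 69 dogs on the line from the mean of normal diestrus (0) to the mean of pyometra (1) over all genes, on the vertical axis, by group on the horizontal axis. Points are dogs, open for anestrus and filled for the diestrus stage, bars are means and numbers are CEH case numbers. The CEH dogs of the pyometra branch sit between 0.385 and 0.674, and dogs 162 and 226 are the highest of the diestrus branch.

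Ward clustering of all 69 dogs over the 1000 genes of largest variance, cut into 2 sets, put 14 of the 16 CEH dogs on the side of their branch. The dogs that differed were 162 and 226, both in anestrus, which joined the side of the pyometra dogs. With 5000 genes, with all genes or with correlation as the distance, all 16 dogs lay on their own branch's side. Complete linkage put 10 and average linkage 9 of the 16 on that side, because the side with most pyometra dogs then held 1 and 0 of the CEH dogs. The split of the CEH dogs thus held for Ward's method, and 2 dogs were at its edge.

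Stage was the clinical feature of interest, since anestrus was more frequent in the pyometra branch (4 of 7 dogs) than in the diestrus branch (2 of 9). The imbalance did not pass the threshold (p = 0.302, two-sided, by Fisher's exact test), nor did it among the untreated dogs (4 of 6 against 1 of 6, exact p = 0.242). Treatment with progesterone-like compounds was recorded in 1 of 7 against 3 of 9 dogs (p = 0.585, two-sided, by Fisher's exact test). The case numbers, the only ordering of the dogs in the labels, averaged 118 ± 75.8 in the pyometra branch and 148 ± 48.5 in the diestrus branch (exact permutation test, two-sided p = 0.346). With 7 and 9 dogs, only a large imbalance could pass these tests.

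Between the branches, 488 of 15947 genes (3.06%) differed at least 2-fold in the mean, 268 higher in the pyometra branch (1.68%) and 220 lower (1.38%). In 56 of these (0.351%) every dog of one branch lay above every dog of the other, with 46 higher (0.288%) and 10 lower (0.0627%) in the pyometra branch. At any size of difference, 199 genes (1.25%) had no overlap. Without dog 162, 107 genes were at least 2-fold apart with no overlap, all 56 among them, and leaving out a dog cannot add an overlap. These shares describe the values that placed the dogs and are no test of them. In all dogs the tissue was measured in bulk, so fewer cells of a type and less RNA per cell cannot be told apart.

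DHRS9, a short-chain dehydrogenase that can act on retinol and on steroids, had the largest difference among the genes with no overlap. Its level was 8.26 at the lowest, 9.74 at the median and 10.71 at the highest in the pyometra branch, and 4.26, 4.97 and 6.92 in the diestrus branch. The lowest dog of the pyometra branch, dog 29, was still above the highest of the diestrus branch, dog 196, and the means were 21.5-fold apart. The anestrus dogs of the diestrus branch were low as well, at 5.84 in dog 162 and 4.26 in dog 226, so the branches were apart in both stages. Normal diestrus averaged 4.81 ± 0.89 (SD, n = 21), mucometra 9.59 and pyometra 10.97.

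STC1, a secreted glycoprotein that mammalian uterine glands release, was next. It was at 8.34, 10.24 and 12.38 (lowest, median and highest) in the pyometra branch and at 5.04, 6.00 and 7.09 in the diestrus branch, 20.2-fold apart in the mean. Dogs 133 and 171, both in the diestrus stage, had the highest levels (12.38 and 12.34), above the means of mucometra (9.66) and pyometra (9.18). The highest dogs of the diestrus branch were its 2 anestrus dogs, 162 and 226, at 7.09 and 7.04. IGFBP1, which binds insulin-like growth factors and marks decidual stroma in humans, was 25.7-fold higher in the mean but overlapped. It was at 11.96 to 12.69 in dogs 13, 29, 133 and 171, at 8.70 and 9.19 in dogs 94 and 180, and at 5.62 in dog 208, inside the 4.88 to 8.13 of the diestrus branch. Its sister IGFBP3, which carries most circulating insulin-like growth factor, was even within the pyometra branch (9.44 to 10.10) and at 5.79 to 8.40 in the diestrus branch, 5.96-fold apart.

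**Figure D2:**
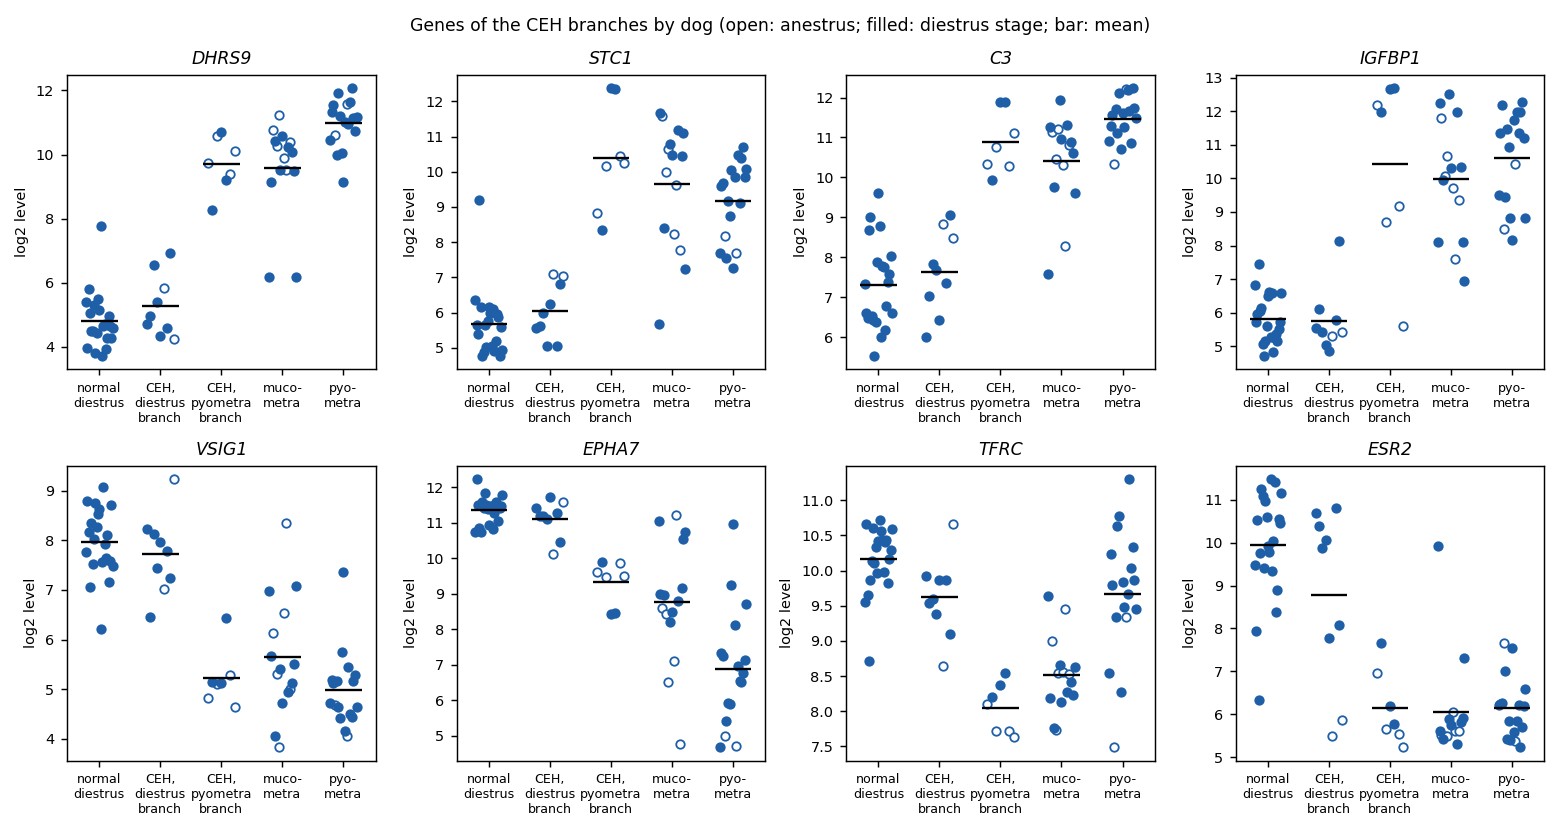
log2 level of 8 genes on the vertical axes in each dog, by group on the horizontal axes, with open points for anestrus, filled points for the diestrus stage and bars for means. DHRS9, STC1 and C3 part the CEH branches without overlap in both stages, IGFBP1 is low in 1 dog of the pyometra branch, and VSIG1, EPHA7 and TFRC are lower in the pyometra branch. ESR2 is low in the pyometra branch and also in the 2 open points of the diestrus branch.

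Complement proteins, which tag microbes and cell debris for clearance, were the list with the most genes parted without overlap. Of 19 measured genes, 8 were at least 2-fold higher in the pyometra branch (against 1.68% of all genes) and none lower. C3, C7, CFI, SERPING1 and C1R did not overlap (against 0.288% of all genes). The median difference of the list was 0.73 against 0.00 over all genes. C3, the central component, was at 9.93, 10.75 and 11.89 (lowest, median and highest) in the pyometra branch and at 6.01, 7.69 and 9.06 in the diestrus branch, 9.47-fold apart. C7, part of the membrane attack complex, was 6.73-fold and CFI, the protease that inactivates C3b, 4.78-fold higher, so the components and a regulator that limits them were high in the same dogs. C4BPA, another inhibitor of the cascade, was 7.84-fold higher in the mean but overlapped, since dog 94 was at 6.35 and dog 196 of the diestrus branch at 8.94. The median of the list was 1.11 among diestrus-stage dogs and 0.28 among anestrus dogs, where dogs 162 and 226 had C3 at 8.84 and 8.49.

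Of 24 chemokines, which attract leukocytes, 6 were at least 2-fold higher in the pyometra branch (against 1.68% of all genes), 18 were not, and none was lower, with a list median of 0.33. CXCL14 did not overlap, at 6.95, 7.97 and 9.63 against 4.71, 5.78 and 6.77 (lowest, median and highest in the pyometra and the diestrus branch), 5.58-fold apart. CXCL8, which draws neutrophils, was 3.26-fold higher at a mean of 7.27, below the 8.05 of mucometra and the 10.61 of pyometra. PTGS2, the inducible enzyme of prostaglandin synthesis, was at 6.20 to 9.22 in the pyometra branch and at 3.97 to 5.15 in the diestrus-stage dogs of the diestrus branch, but reached 6.89 in dog 162 and 6.04 in dog 226. VCAM1, the endothelial ligand that holds leukocytes, was 4.13-fold higher without overlap, and NFKBIZ, an inhibitor-like partner of NF-kappaB, 3.20-fold.

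None of 17 neutrophil markers differed 2-fold, against 3.06% of all genes, and the list median was 0.18. Their mean levels (each gene relative to its mean over the 69 dogs) ran from -0.492 to 0.005 in the pyometra branch and from -0.709 to -0.365 in the diestrus branch, and S100A8 was at 4.73 to 5.72 and 4.15 to 5.72. In pyometra S100A8 averaged 9.06. S100A9, its partner in calprotectin, was 1.97-fold higher in the pyometra branch (7.12 against 6.14 in the mean), and CSF3R, the receptor for granulocyte colony-stimulating factor, was higher without overlap, at 6.31 to 7.02 against 5.88 to 6.29. SLPI, an antiprotease of mucosal secretions, was at 5.96, 6.38 and 8.18 (lowest, median and highest) in the pyometra branch and at 5.69, 6.01 and 6.23 in the diestrus branch, against a mean of 12.11 in pyometra, and only dogs 13, 94 and 171 were above 7. Of 17 macrophage and monocyte markers, MS4A7, MRC1 and LYZ were at least 2-fold higher, against 1.68% of all genes. The median over these 17 markers was 0.76, with 1.15 among diestrus-stage dogs and -0.01 among anestrus dogs. Their mean level ran from -0.621 to 0.773 in the pyometra branch and from -1.566 to -0.169 in the diestrus branch. CD14, the lipopolysaccharide co-receptor of these cells, was 1.72-fold higher and rested on dogs 133 and 171, at 8.71 and 9.01, with the other 5 dogs at 7.27 to 7.74 and the diestrus branch at 6.81 to 7.50. None of the T and NK cell, B and plasma cell or mast cell markers (19, 15 and 8 measured) differed 2-fold, and their list medians were 0.43, 0.17 and 0.29. The part of these leukocyte markers in the complement and chemokine differences was not tested.

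Immediate early genes, transcription factors and feedback inhibitors that cells switch on quickly after growth factors, stress or handling, gave the largest share of any list. Of 24 measured, 16 were at least 2-fold higher in the pyometra branch (against 1.68% of all genes) and none lower. The list median was 1.22 against 0.00 over all genes. SOCS3, which damps cytokine signalling, was 5.33-fold higher, FOSB 4.94-fold and FOS 3.58-fold. FOS was at 11.02, 12.24 and 12.84 (lowest, median and highest) in the pyometra branch and at 8.50, 10.84 and 12.16 in the diestrus branch, and the dogs at the top of the diestrus branch were again 162 (12.16) and 226 (11.40). DUSP1 and KLF6 of the list did not overlap (against 0.288% of all genes). The mean level of the list was 0.164 to 1.269 in the pyometra branch and -1.094 to 0.667 in the diestrus branch, with dog 162 highest there, and handling times of single dogs were not used here. In pyometra FOS averaged 10.63, closer to the diestrus branch, while mucometra averaged 12.32.

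Among the other genes parted without overlap, PDPN, a mucin-type glycoprotein of lymphatic and stromal cells, was 4.97-fold higher in the pyometra branch, at 8.47 to 9.72 against 5.78 to 7.96. CTHRC1, secreted in tissue repair, was 4.72-fold, ADAMTS5, a protease of proteoglycans, 4.10-fold and INHBB, an activin subunit, 4.48-fold higher. SLCO5A1, an organic anion transporter family member, was at 6.16 to 8.66 against 4.25 to 5.33, and KLKB1, the plasma prekallikrein gene, at 6.80 to 9.87 against 4.81 to 6.47. CLDN1, a tight junction protein, was 3.32-fold and AQP1, the water channel of endothelium, 2.17-fold higher. LIF, the cytokine that mice need for implantation, was at 6.34 to 8.18 against 4.74 to 6.29. SLC47A2, a transporter that exports organic cations and was named after its values were seen, was at 11.05 to 12.71 in the pyometra branch but spread from 5.02 to 12.26 in the diestrus branch.

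There were 10 genes lower without overlap. VSIG1, an adhesion molecule of glandular epithelium of the stomach, was lowest relative to the diestrus branch, at 4.64, 5.13 and 6.43 (lowest, median and highest) against 6.46, 7.78 and 9.23, a 5.65-fold difference. Dog 171 (6.43) nearly met dog 83 (6.46) and stood 1.14 above the next dog of its branch. EPHA7, a receptor tyrosine kinase of cell guidance, was at 8.43 to 9.89 against 10.11 to 11.72, 3.47-fold, and its family's ligand EFNA4 was 2.10-fold lower. TFRC, the transferrin receptor that takes up iron, was 2.99-fold lower, at 7.64 to 8.54 against 8.65 to 10.66. In TFRC the pyometra dogs averaged 9.67, close to the diestrus branch (9.62), and mucometra 8.52. SOX17, needed for gland formation in mice, was 2.10-fold, GLI1, a target of hedgehog signalling, 2.08-fold and SALL1, a zinc finger regulator, 2.47-fold lower. UGT8, which makes galactosylceramide, TMEM251 and SPACA9 completed the set, 2.23 to 2.49-fold lower.

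MSX2 and MSX1, homeobox factors of uterine receptivity in mice, were 4.44-fold and 2.89-fold lower in the pyometra branch with overlap, and IHH, the hedgehog ligand that progesterone induces in mouse epithelium, was 2.59-fold lower, so ligand and target (IHH and GLI1) were both low. In the list of 28 progesterone-responsive genes, 5 were at least 2-fold higher (IGFBP1, STC1, LIF, PRLR and KLF4) and 4 lower (MSX2, MSX1, IHH and SOX17). The list thus did not move one way. Over all genes, 1.68% were at least 2-fold higher and 1.38% lower. Of 36 genes of Wnt signalling, WNT11, WIF1, NDP and LEF1 were 2.12 to 2.66-fold lower, against 1.38% of all genes at least 2-fold lower. None of the 36 was at least 2-fold higher, and the list median was 0.05. In WNT11 the anestrus dogs 162 and 226 of the diestrus branch were low too, at 6.04 and 6.27.

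Steroid receptors differed in 1 member only. ESR2, the beta form of the estrogen receptor, was 6.23-fold lower in the pyometra branch, at 5.23, 5.78 and 7.66 (lowest, median and highest) against 5.49, 9.88 and 10.81. The anestrus dogs 162 (5.49) and 226 (5.87) lay within the pyometra branch, and the other 7 dogs of the diestrus branch were at 7.77 to 10.81. ESR1, the alpha form, was at 9.92 to 11.61 against 10.58 to 11.83, and PGR at 8.65 to 9.95 against 8.96 to 10.54. Of 22 steroid enzymes, HSD17B2, which inactivates estradiol, and the sulfotransferase SULT1D1 were 2.54-fold and 2.56-fold lower and HSD17B11 2.06-fold higher. HSD17B2 and SULT1D1 were lower in the pyometra branch among diestrus-stage dogs only (log2 difference -1.72 for each). Among anestrus dogs, where the diestrus branch is dogs 162 and 226, they were higher in the pyometra branch, by 0.59 and 1.4. SULT1D1 was also called lower in anestrus in the limma test of stage given below. It kept that call in 9 of 16 fits with a dog left out. HSD17B11 rested on dog 133, at 11.26, with the other 6 dogs of its branch at 7.34 to 8.75. Of 19 retinoid genes, DHRS9 was higher and ALDH1A1, a retinaldehyde dehydrogenase, lower. ALDH1A1 was at 5.50 to 6.15 in dogs 13, 29, 133 and 171 and at 7.88 to 8.67 in dogs 94, 180 and 208.

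LTF and DMBT1, mucosal defence proteins, were 3.90-fold and 2.42-fold lower in the pyometra branch, and CLU, WFDC2 and LYZ 2.02 to 2.90-fold higher, all with overlap. LTF ran from 5.61 in dog 162 to 12.15 in dog 155 within the diestrus branch. OBP2B, a lipocalin of secretions, was at 9.34 to 12.56 in dogs 81, 83, 131, 175 and 196 but at 4.63 to 5.58 in dogs 127, 155, 162 and 226, which lay among the pyometra branch (4.47 to 6.08). Of 32 ion and water transport genes, 6 were at least 2-fold higher (SCNN1G, CFTR, SLC4A4, CA12, AQP1 and SCNN1B) and 5 lower (SLC26A4, SCNN1A, SLC12A2, AQP2 and AQP9). The shares over all genes were 1.68% higher and 1.38% lower. The subunits of the epithelial sodium channel were split, with the gamma subunit gene SCNN1G 4.47-fold higher and the alpha subunit gene SCNN1A 2.50-fold lower.

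Of 37 cell cycle genes, 9 were at least 2-fold lower in the pyometra branch (against 1.38% of all genes) and none higher, with a median of -0.71. The difference rested on 4 of the 9 dogs of the diestrus branch. MKI67, the Ki-67 proliferation antigen, was at 10.11, 8.86, 8.79 and 8.46 in dogs 127, 81, 162 and 226, at 5.15 to 7.08 in the other 5 and at 5.23 to 7.29 in the pyometra branch. Those 4 dogs include both anestrus dogs and 2 in the diestrus stage. In the mean MKI67 was 1.53 higher in anestrus within the diestrus branch and 0.23 higher within the pyometra branch. The part of stage in the high level was not tested within the branches. KIF11, a spindle motor, and TOP2A, a topoisomerase of dividing cells, had the same 4 dogs on top.

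Markers of the tissue layers moved with some of these genes. ACTC1, an actin of heart and of some smooth muscle, had the largest mean difference among lower genes (12.9-fold), but its levels in the pyometra branch were 2.74 to 4.49 in dogs 94, 171, 180 and 208 and 7.29 to 10.31 in dogs 13, 29 and 133, against 9.26 to 10.35 in the diestrus branch. The smooth muscle genes ACTG2, MYH11 and DES were lowest in dog 171 (9.40, 7.01 and 9.12). In the mean of the pyometra branch ACTG2 and MYH11 were 2.43-fold and 1.75-fold lower, but DES was 1.83-fold higher. The median difference of the 16 smooth muscle markers was -0.14. The mean level of the 16 smooth muscle markers ran from -1.495 in dog 171 to 1.041 in dog 13 within the pyometra branch, and from -0.153 to 0.756 in the diestrus branch, and its part in the results was not tested. Without dog 171, 55 of the 56 genes that parted the branches still did so. Leaving out a dog cannot add an overlap, so this count does not show what part the smooth muscle level had. Of 21 simple epithelium markers, KRT19 was 2.07-fold lower, resting on dog 133 at 6.54, and the list median was -0.33. Of 20 stromal fibroblast markers, FBLN1 and MFAP4 were 2.31-fold and 2.03-fold higher, with a median of 0.50 overall but -0.43 among anestrus dogs, where dogs 162 and 226 had the highest mean levels of the 16 dogs (0.735 and 0.499). LYVE1, a marker of lymphatic endothelium and some macrophages, was the 1 of 19 endothelium markers past 2-fold, and the list median was 0.55, with 0.67 among diestrus-stage dogs and 0.23 among anestrus dogs. PECAM1 and VWF, which define endothelium, were 1.64-fold and 1.71-fold higher with overlap. The part of the endothelium markers in the differences of VCAM1 and AQP1 was not tested. None of 24 respiratory chain genes and 1 of 25 collagens, COL14A1, differed 2-fold, against 3.06% of all genes.

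**Figure D3:**
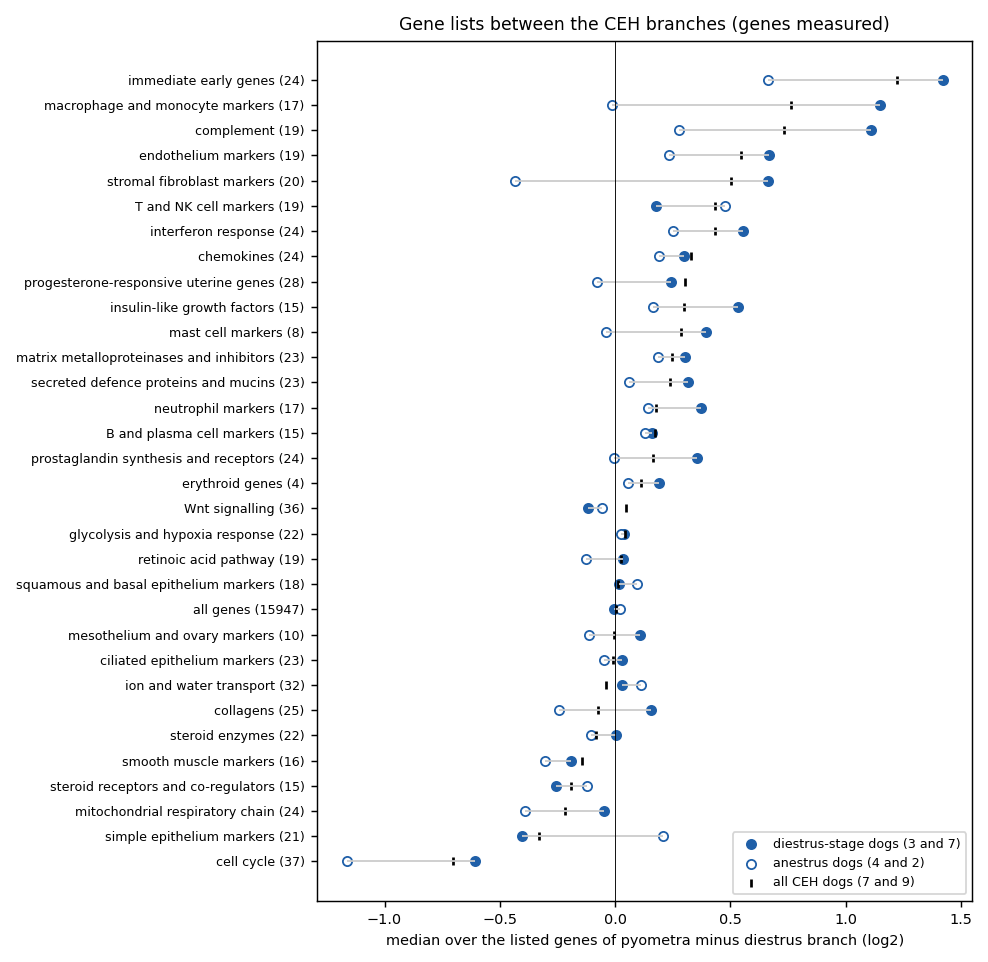
Median over the genes of each list of the difference between the CEH branches (pyometra minus diestrus branch, log2, horizontal axis), with the number of measured genes beside each list name. Filled points are diestrus-stage dogs (3 and 7), open points anestrus dogs (4 and 2) and ticks all CEH dogs (7 and 9). Immediate early genes have the highest median (1.22) and cell cycle genes the lowest (-0.71), and all genes lie at 0.00.

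The same comparison was made within each stage, in dogs that do not overlap between stages. Of the 46 genes higher without overlap, 45 were also at least 2-fold higher among the diestrus-stage dogs (3 against 7), 30 among the anestrus dogs (4 against 2) and 29 in both. Of the 10 lower genes, the counts were 9, 5 and 4. Over all genes, 0.64% were at least 2-fold higher and 0.339% lower within both stages. The median difference of the 46 genes was 1.92 among diestrus-stage dogs and 1.20 among anestrus dogs, where the diestrus branch is dogs 162 and 226. DHRS9 (4.04 and 4.91), SLCO5A1 (2.19 and 2.55), F2RL2, a thrombin receptor (1.83 and 2.60), VCAM1 (1.79 and 1.92) and VSIG1 (-2.04 and -3.16) differed at least as much in anestrus as in the diestrus stage. STC1 (5.26 and 2.85), PDPN (3.09 and 1.03) and CXCL14 (3.12 and 1.57) differed more in the diestrus stage. Both within-stage sets are part of the dogs that chose these genes, so the values describe the split and do not test it.

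**Figure D4:**
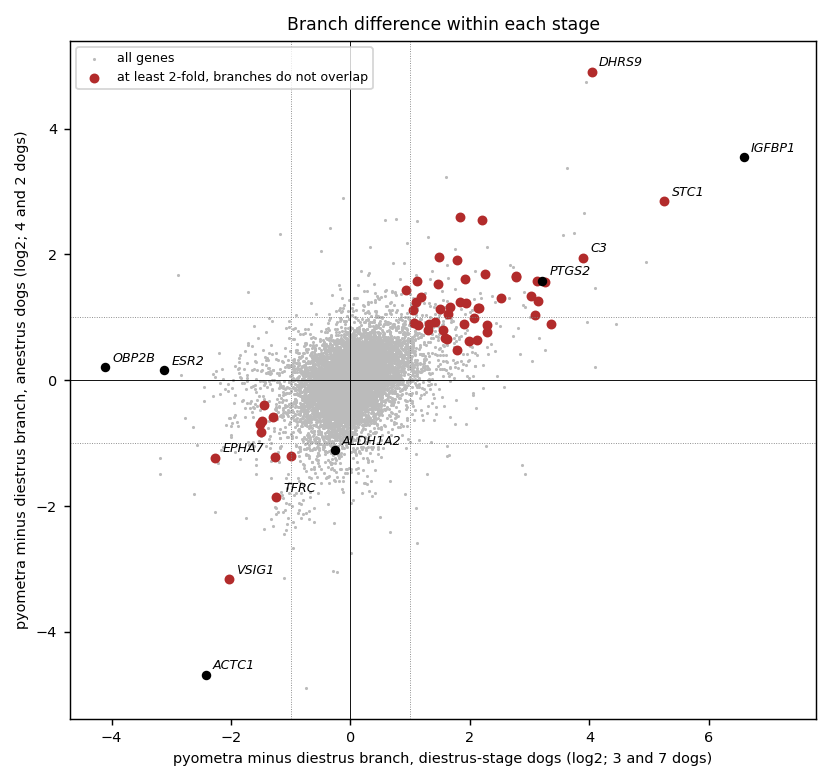
Difference between the CEH branches (pyometra minus diestrus branch, log2) among diestrus-stage dogs on the horizontal axis and among anestrus dogs on the vertical axis. Grey points are all genes, red points the 56 genes with no overlap and at least 2-fold, black points 6 other genes named in the text, and dotted lines mark 2-fold. DHRS9 is far from 0 on both axes, while ESR2 is at -3.12 among diestrus-stage dogs and 0.16 among anestrus dogs.

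The mucometra dogs were part of the study's clustering too, and 3 of the 15 (cases 90, 210 and 227) lay on the diestrus branch. Of the 46 genes, 45 were lower in the mean of these 3 dogs than in that of the other 12, 25 of them at least 2-fold, against 1.17% of all genes. All 10 lower genes were higher in the 3 dogs, 6 at least 2-fold, against 1.21%. The diestrus branch mean of CEH lay inside the range of the normal diestrus dogs for all 56 genes, and the pyometra branch mean inside the range of the mucometra dogs for all 56. In 42 of the 46 and all 10 the mean of mucometra was at least 2-fold past that of normal diestrus in the same direction, and in 37 and 8 that of pyometra was. Among the exceptions for pyometra were CRY2, a clock repressor, and KLF6, where pyometra was at 7.81 and 9.38, near normal diestrus (7.69 and 9.02), and the pyometra branch at 8.94 and 10.35. These groups helped to draw the branches, so the counts are a description.

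Stage itself was tested across all genes in the 16 CEH dogs, as 6 in anestrus against 10 in the diestrus stage (limma, at least 2-fold with a Benjamini-Hochberg adjusted p under 0.05). It called 149 genes (0.934%), with 83 higher (0.52%) and 66 lower (0.414%) in anestrus. None of the 56 genes that parted the branches was among them. The fit had no term for branch, and both branches held dogs of both stages. A gap between branches therefore counted as spread within each stage, which made a call of these genes unlikely from the start. For DHRS9 the stage difference was 1.75 ± 1.11 (SE, limma adjusted p = 0.398), for STC1 1.62 (adjusted p = 0.46), for C3 1.46 (adjusted p = 0.36) and for VSIG1 -0.98 (adjusted p = 0.44). A p that misses the threshold with 6 and 10 dogs does not show that stage had no effect on them. Of the 488 genes at least 2-fold apart between branches, 44 (9.02%) were called by stage, and these are 29.5% of the 149, all in the direction in which anestrus was more frequent. The 2 comparisons use the same dogs, with anestrus in 4 of 7 against 2 of 9.

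Of the 66 genes lower in anestrus, PADI2, a peptidylarginine deiminase that estrogen regulates in rodent uterus, was at 5.90, 6.87 and 8.67 (lowest, median and highest) in the 6 anestrus dogs and at 9.03, 10.45 and 11.18 in the 10 diestrus-stage dogs, with no overlap. Its difference was -3.14 ± 0.41 (SE, limma adjusted p = 0.00456), and the stages were apart within each branch. CTH, an enzyme of cysteine synthesis, differed by -2.52 ± 0.36 (limma adjusted p = 0.00467) and NEBL, an actin-binding protein, by -2.39 ± 0.42 (adjusted p = 0.0134). ESR2 fell by 2.94 on the log2 scale in anestrus (SE 0.733, limma adjusted p = 0.0392), from a mean of 8.73 to 5.79, but dogs 171 (5.78) and 133 (6.20) of the pyometra branch were as low in the diestrus stage. AQP9, a channel for glycerol and water, DPP4, a membrane peptidase, CLDN8, a tight junction protein, and the keratin KRT18 were also called lower. AQP9 was at the threshold (-3.58, limma adjusted p = 0.04998) and its level in dog 155, which is in the diestrus stage, was 4.69, within the anestrus range of 4.57 to 9.27.

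Of the 20 stromal fibroblast markers, LUM, FBLN1, MFAP4, HAND2 and SFRP1 were called higher in anestrus (against 0.52% of all genes) and none lower. The list median was 0.66 against 0.00 over all genes. CAPN6, a calpain without protease activity, rose by 2.44 ± 0.35 (SE, limma adjusted p = 0.00467), COL14A1, a fibril-associated collagen, by 2.02 ± 0.39 (adjusted p = 0.0157), GPC3, a heparan sulfate proteoglycan, by 2.02 ± 0.36 (adjusted p = 0.0140) and HGF, a stromal growth factor that acts on epithelium, by 1.89 ± 0.37 (adjusted p = 0.0171). Of the 19 retinoid genes, ALDH1A2, which makes retinoic acid, its receptor RARB and the retinol importer STRA6 were called higher and LRAT, which stores retinol as esters, lower, while DHRS9 was not called. ALDH1A2 was at 9.21 to 10.08 in 5 anestrus dogs, at 6.36 in dog 13, and at 5.82 to 7.51 in the diestrus stage. CFTR, the chloride channel, rose by 2.40 ± 0.52 (limma adjusted p = 0.0248). The steroid receptors ESR1 and PGR were 0.64 ± 0.21 and 0.68 ± 0.22 higher, with limma adjusted p = 0.102 and 0.0953. MKI67 differed by 0.27 ± 0.73 (limma adjusted p = 0.883), and no cell cycle gene of the list was called.

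**Figure D5:**
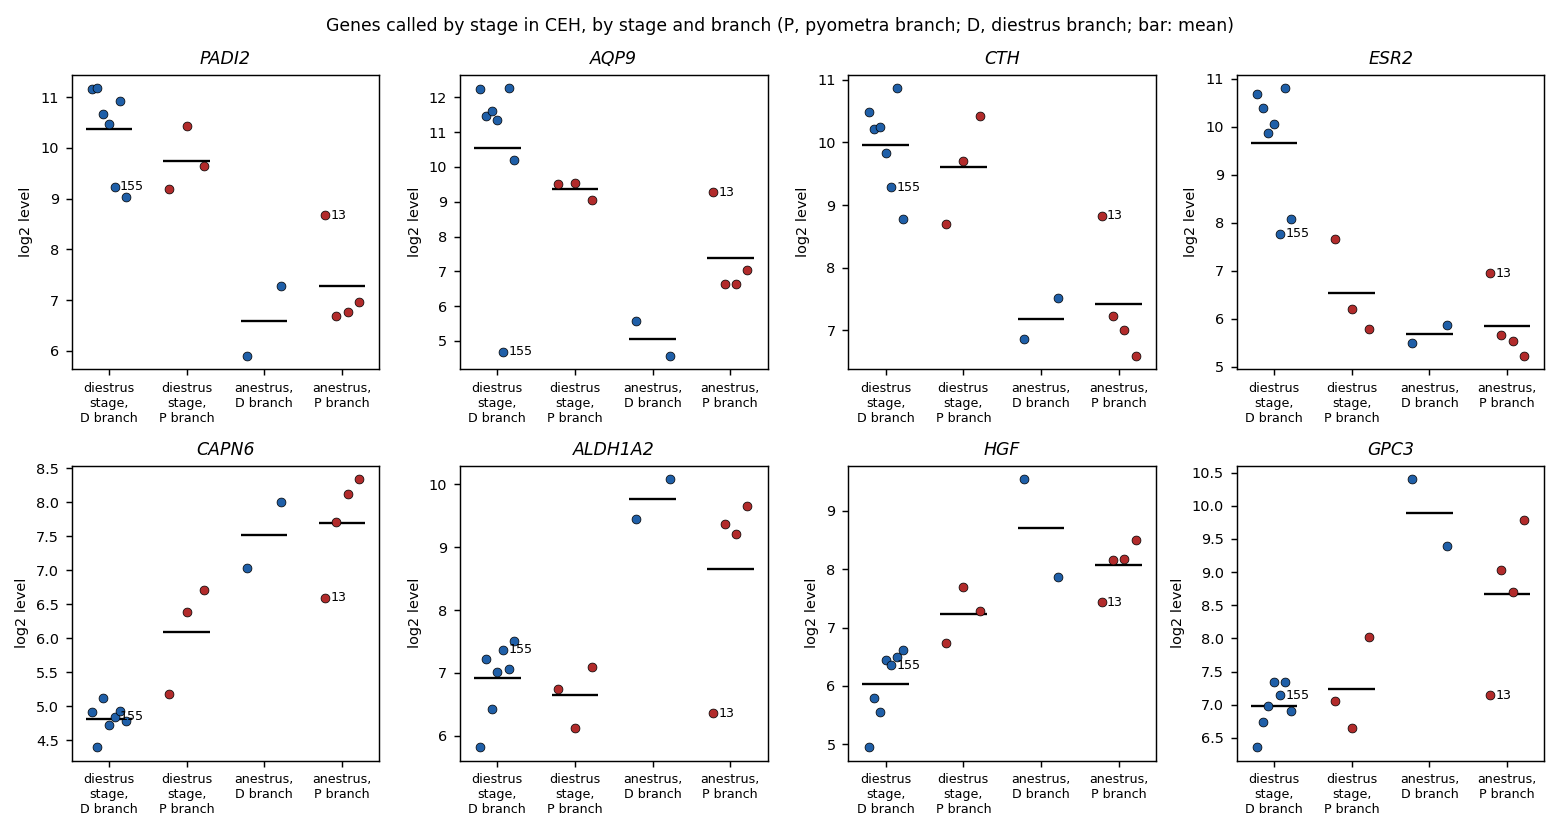
log2 level (vertical axes) of 8 genes called by stage in CEH, in each of the 16 dogs by stage and branch, with red points for the pyometra branch, blue points for the diestrus branch and bars for means. In PADI2 the 2 stages are apart in both branches, and in PADI2 and CTH dog 13 is the highest of the anestrus dogs, in CTH (8.83) above dogs 29 and 196. In ALDH1A2 and GPC3 dog 13 is with the diestrus-stage dogs, and in AQP9 dog 155 is with the anestrus dogs.

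Dogs differed in how closely they followed their stage over the called genes. The same 16 dogs chose these genes, so nearness to the own stage is partly built in and the counts are a description. Dog 13, labelled anestrus, was nearer to the mean of the other anestrus dogs in 81 of the 149 genes and nearer to the diestrus-stage dogs in 68, whereas the other 5 anestrus dogs were nearer to their own stage in 129 to 148. Dog 155, labelled diestrus stage, was nearer to anestrus in 55 genes, against 1 to 15 in the other 6 diestrus-stage dogs of the diestrus branch. The diestrus-stage dogs of the pyometra branch, 29, 133 and 171, were nearer to anestrus in 59, 48 and 39. Without dog 13 the test called 238 genes, and without dogs 29, 133, 155 and 171 it called 220, 201, 203 and 173. It called 96, 77, 48, 92, 44, 77, 66 and 65 genes without dogs 81, 83, 94, 131, 162, 175, 180 and 208, so the size of the stage set depends on single dogs. Of the genes named above, the calls of PADI2, CTH, NEBL, CAPN6, COL14A1, GPC3 and HGF were kept with any 1 of the 16 dogs left out, while ESR2 kept its call in 6 and AQP9 in 3 of the 16. ALDH1A2 lost its call without dog 94, 162 or 208, CFTR without dog 94 or 180, DPP4 without dog 162, CLDN8 and MFAP4 without dog 94, and MFAP4 also without dog 162, while FBLN1 kept its call in 7 of 16. The highest limma adjusted p with a dog left out was 0.113 for AQP9, 0.0965 for FBLN1 and 0.0924 for ESR2.

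By branch, the 83 genes higher in anestrus had a median stage difference of 1.56 in the diestrus branch (2 against 7 dogs) and 0.94 in the pyometra branch (4 against 3), and the 66 lower genes -1.83 and -0.90. Of them, 35 and 28 were at least 2-fold the same way in both branches. This difference between branches was not tested, and dog 13 is 1 of the 4 anestrus dogs of the pyometra branch. In the mucometra dogs, which did not choose these genes, 63 of the 66 lower genes were also lower in anestrus (6 against 9 dogs), against 52.2% of all genes, with a median of -0.51. Of the 83 higher genes, 54 were higher, against 47.8% of all genes, with a median of 0.18. No gene was called by stage in mucometra alone (limma, 0 called, 67 at least 2-fold with an unadjusted p under 0.05), with or without dog 216. No difference between the stage effects in CEH and mucometra was called either (limma interaction, 0 called, 226 at least 2-fold with an unadjusted p under 0.05). The study's clinical table puts nearly all diestrus-stage CEH dogs in early diestrus, but those with mucometra in early, mid and late diestrus. The stage contrast is therefore not the same in both diseases, and these parts of diestrus were not used here. CAPN6 differed by 2.44 in CEH and by -1.14 in mucometra (limma interaction adjusted p = 0.107). For the 46 branch-parting genes higher in the pyometra branch the median stage difference in mucometra was 0.04, and 29 of 46 were higher in anestrus. For the 10 lower genes the median was -0.24, and 8 of 10 were lower in anestrus.

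Treatment with progesterone-like compounds called no gene in the 4 treated against 12 untreated CEH dogs (limma, 0 called, 15 at least 2-fold with an unadjusted p under 0.05). With stage as a second factor, with all 69 dogs in the fit or without any 1 treated dog, the limma count was also 0.

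Among the 67 measured genes that the study had singled out in these same dogs, 15 were at least 2-fold higher and 16 lower in the pyometra branch. This share was 46.3%, against 3.06% of all genes. The 67 genes were chosen on these samples and are not independent evidence of a direction. The higher ones included SPP1, a secreted adhesion protein (8.29 against 6.34 in the mean), and TFPI2, a protease inhibitor (6.50 against 4.61). MMP13, a collagenase, was at 9.11 in dog 94 and 6.13 in dog 180 but at 4.17 to 4.88 in the other 5 dogs of the pyometra branch and 3.69 to 4.91 in the diestrus branch, so its 2.25-fold mean difference came from those dogs. Interferon-stimulated genes were higher in the mean of the pyometra branch, with a list median of 0.43. Of 24, 5 were at least 2-fold higher (MX2, DDX60, USP18, MX1 and IRF1), against 1.68% of all genes. Dog 29 had the highest MX1, MX2, DDX60 and USP18 of the 16 dogs.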

How the data were processed

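RNA from 69 endometrial samples was hybridized by the authors to canine gene arrays. The deposited values are log2 levels of probe sets, which the authors made with RMA background correction and quantile normalization, using limma. They were used without change. Of 32391 probe sets, 16545 had 1 gene symbol, and the one with the highest mean was kept for each of 15947 genes. Branch, stage and treatment of each dog were read from the study's clustering diagram, and diagnoses and case numbers from the sample titles. Stage and treatment were tested with limma 3.58.1 in R 4.3.3 (calls at 2-fold and adjusted p under 0.05), and small tables with exact tests in scipy 1.17.1. The limma step was tested on simulated data. Nothing in the sources says how arrays were batched. The number of arrays limits the precision. Lists held 32 sets of genes.

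The members, the gene lists and the naming rule were chosen with earlier results of these data known. The rule named the 12 largest differences in each direction among genes that parted the branches, up to 4 members of each list past 2-fold, the 10 largest stage calls in each direction, and ESR1, ESR2, PGR, DHRS9, SLPI, EPHA7, MKI67 and CD14. In all it named 99 genes. Other genes in the text were named after their values were seen. Symbols of the form LOC were counted but not named. Alternatives were other probe set summaries, a filter at a mean log2 of 5, centring, subsets of dogs, covariates, the methods' t-test and other clustering settings. Leaving out single dogs, the mucometra fit without dog 216 and the test of the stage difference between CEH and mucometra were added after seeing the data.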

Additional observations from a re-analysis of the deposited data

Results flagged for a closer look

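Over 62 sets of values (the genes chosen by the branch difference or always named, and the position, in each branch), 1 dog lay farther from its branch than Dixon's 95% limit allows. This was dog 171 in VSIG1, at 6.43 in the pyometra branch, where the gap to the next dog was 0.637 of the range of the 7 dogs (limit 0.568). Chance flags about 1 in 20 such sets.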

How the results depend on the processing

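Branch, stage and treatment labels rest on a reading of the study's diagram, the branches were drawn from the same values, and only 2 dogs of the diestrus branch were in anestrus. No paired analysis was possible because the case numbers are those of single dogs and no number is shared between groups. The counts of genes parted by branch kept to within 1.5 times their main value except as follows. With diestrus-stage dogs only, 764 genes were at least 2-fold apart and 325 of them had no overlap. Genes with no overlap numbered 179 in untreated dogs, 169 without dogs 162 and 226 and 107 without dog 162, with fewer dogs to overlap by construction. Of the 56 genes, 54 to 56 were kept under every one of these settings, where a gene can be lost only through the 2-fold limit. Leaving out 1 dog gave 392 to 560 genes 2-fold apart and 56 to 107 with no overlap. For stage in CEH the methods' t-test found 309 genes at least 2-fold apart with an unadjusted p under 0.05. After Benjamini-Hochberg adjustment it called 82 of at least 2-fold, all 82 among the 149. Untreated dogs only gave 34 and leaving out 1 dog 44 to 238, and the other settings 123 to 219. Average linkage placed 9 of 16 CEH dogs on the side of their branch. With mucometra as the end point the branches were 0.629 apart in position against 0.394. The share of treated dogs turned to 1 of 3 against 2 of 7 in the diestrus stage (exact p = 1.0). The cause of these shifts was not tested. Of 2275 values of branch differences of the 99 named genes under alternatives, 0 changed sign and 8 moved past the spread between dogs. Of 750 of stage differences, 142 changed their call and 0 their sign for a called gene.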
